A study of Saccharomyces cerevisiae with 6 samples.

Results

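The peroxiredoxins and thioredoxins of budding yeast were followed in cells grown with myriocin, an inhibitor of serine palmitoyltransferase, the enzyme that starts sphingolipid synthesis. The genes were taken by name, with no threshold on their values: TSA1, TSA2, AHP1, PRX1 and DOT5 for peroxiredoxins, TRX1, TRX2 and TRX3 for thioredoxins, and TRR1 and TRR2 for thioredoxin reductases. All 10 were found on the array, each read by 1 probe set, among 5420 genes tested. The arrays held 3 myriocin cultures, given 300 ng/ml of the drug, and 3 No-myriocin cultures, which received the ethanol vehicle alone. Both groups were wild-type strain DBY746, carried 0.3% ethanol and were grown at 30 °C from an A600 of 0.002 until it reached 2, so the drug was present throughout growth. No knockout or other allele distinguishes the groups, and 1 strain was used. The study's design note calls the cultures biological replicates, without saying whether they were grown on separate days.

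Peroxiredoxins are abundant enzymes that reduce hydrogen peroxide and organic peroxides with a reactive cysteine. The oxidised enzyme is then reduced by a thioredoxin, a small protein with a pair of cysteines, and thioredoxin is reduced in turn by thioredoxin reductase at the expense of NADPH. Yeast keeps one set of these proteins in the cytosol and another in mitochondria, with DOT5 in the nucleus, and several of the genes are known targets of the peroxide-responsive transcription factor Yap1.

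Signals are log2 values as the authors deposited them, so a difference of 1 is a doubling of signal. Array medians over genes lay between 11.06 and 11.08, and between 95.4% and 95.7% of genes lay above the background ceiling of 2.07, the highest value of 50 negative-control probe sets. The lowest value of any of the 10 genes on any array was 8.89, so each was measured well above background. This ceiling does not account for signal that a probe set may read from a close paralog. Ribosomal RNA control probe sets were lower with myriocin on 16 of 17 with no overlap of the groups (median log2 difference -1.61), and all 26 hybridisation controls above background were lower, by 0.32 on average. What these shifts contribute to the differences below was not tested. Changes are therefore stated relative to the other genes, and values after control scaling, in which the hybridisation controls are set equal between arrays and 0.32 is added to every log2 fold change, are given where they alter a call. Precision is limited by having 3 arrays a group, and the standard error (SE) over genes had a median of 0.11 on the log2 scale. In a population of cells, a change in RNA per cell and a change in the share of cells that hold it cannot be told apart.

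With myriocin, 5 of the 10 genes rose and none fell. The risers were TSA2, the inducible twin of the main cytosolic peroxiredoxin, with a 9.90-fold increase, TRR2, PRX1 and TRX3, which encode the mitochondrial thioredoxin reductase, peroxiredoxin and thioredoxin (3.84-fold, 3.03-fold and 1.76-fold), and DOT5, the nuclear peroxiredoxin (1.51-fold). The other 5, the cytosolic TSA1, AHP1, TRX1, TRX2 and TRR1, had estimated folds between 0.938 and 1.04 and did not pass the test (limma, Benjamini-Hochberg adjusted p under 0.05). Over all 5420 genes, 25.5% rose and 28.8% fell by the same test. With the replicate numbers as a block the same 5 genes rose and none fell, against 25.4% and 27.1% of all genes. Their adjusted p with the block was larger, from 0.000759 for PRX1 to 0.0058 for DOT5 (limma). After control scaling these 5 and TRX2 rose and none fell, against 39.9% and 12% of all genes. The groups did not overlap in 6 of the 10 genes, against 66.4% of all genes. The median log2 fold change of the 10 genes was 0.33, against -0.03 for all genes, and 0.64 against 0.29 after control scaling. The 5 increases passed under all 16 alternatives tried, but not all of these could alter them. Averaging probe sets and flooring at background left the values of the 10 genes as they were. The variance models, the block, leaving out dim genes and the stricter threshold changed only the test, not the log2 fold changes.

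**Figure D1:**
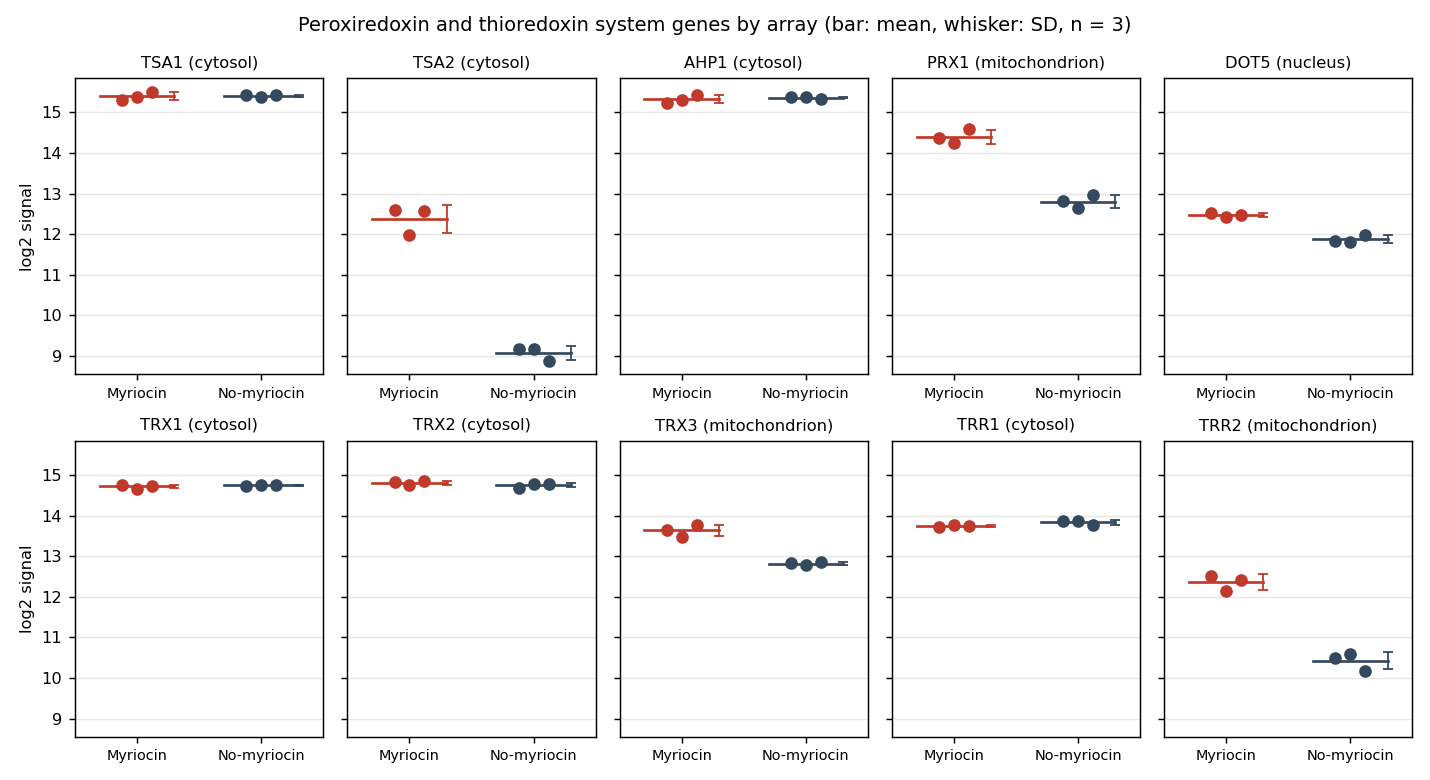
Each panel plots the log2 signal of a gene (vertical axis) on the 3 Myriocin arrays (red, left) and the 3 No-myriocin arrays (dark, right), with the mean as a bar and the SD as a whisker. TSA2, PRX1, DOT5, TRX3 and TRR2 are higher on every Myriocin array, while the points of TSA1, AHP1, TRX1 and TRX2 overlap.

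Among the peroxiredoxins the largest change was in TSA2, a cytosolic enzyme that resembles TSA1 and is known as its stress-inducible form. Its log2 signal was 12.59, 11.98 and 12.58 in myriocin cells, against 9.17, 9.17 and 8.89 in No-myriocin cells. Every myriocin array stood above every No-myriocin array, with a gap of 2.81 between the nearest values. The log2 fold change was 3.31 (SE 0.19, n = 3 per group, limma adjusted p = 0.000133), with a 95% confidence interval of 7.21-fold to 13.6-fold. It ranked 62 from the highest among the 5420 log2 fold changes.

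PRX1, the peroxiredoxin of mitochondria, was next. Signals were 14.36, 14.25 and 14.59 in myriocin cells, against 12.81, 12.63 and 12.96 in No-myriocin cells. The groups were separated by 1.29 at their nearest, and the log2 fold change was 1.60 (SE 0.13, limma adjusted p = 0.000311). DOT5 showed a smaller and tight increase. Its signals were 12.51, 12.42 and 12.47 in myriocin cells, against 11.84, 11.80 and 11.98 in No-myriocin cells, which gives a log2 fold change of 0.59 (SE 0.08, limma adjusted p = 0.00141). The SD was 0.05 in myriocin cells and 0.09 in No-myriocin cells, and the nearest values of the groups differed by 0.44.

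TSA1, the main peroxiredoxin of the cytosol and also a chaperone, gave 15.31, 15.37 and 15.50 in myriocin cells, against 15.43, 15.38 and 15.42 in No-myriocin cells. The groups overlapped, and the log2 fold change was -0.01, with a 95% confidence interval of -0.20 to 0.17 (limma adjusted p = 0.897). AHP1, which prefers organic peroxides, gave 15.24, 15.31 and 15.43 in myriocin cells, against 15.37, 15.38 and 15.34 in No-myriocin cells. Here too the groups overlapped, around a log2 fold change of -0.03 with an interval of -0.22 to 0.15 (limma adjusted p = 0.728). In both genes the signs of these small differences turned to positive under quantile normalisation, after control scaling and without myriocin replicate 1. On the deposited scale the 95% intervals, not adjusted for the number of genes, reached 1.13-fold up for TSA1 and 0.860-fold down for AHP1. After control scaling the log2 fold changes were 0.30 for TSA1 and 0.28 for AHP1, and neither passed (limma adjusted p = 0.0881 and 0.0981).

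Of the thioredoxin genes, TRX3 alone passed. TRX3, whose product is mitochondrial, had signals of 13.66, 13.48 and 13.77 in myriocin cells, against 12.82, 12.79 and 12.85 in No-myriocin cells. Each myriocin value was above each No-myriocin value, by 0.64 at the nearest, and the log2 fold change was 0.82 (SE 0.09, limma adjusted p = 0.000846). The cytosolic TRX1 and TRX2 encode close relatives that can stand in for each other, of which TRX2 is the better known Yap1 target.

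TRX2 gave 14.82, 14.76 and 14.86 in myriocin cells, against 14.69, 14.78 and 14.78 in No-myriocin cells. The groups overlapped and the log2 fold change was 0.06, with an interval of -0.11 to 0.23 (limma adjusted p = 0.481). After control scaling it became 0.38 and passed (limma adjusted p = 0.0426, the lowest of its 16 alternatives, which reached 0.791), the one call among the 10 genes that this scaling added. TRX1 gave 14.75, 14.67 and 14.73 in myriocin cells, against 14.74, 14.76 and 14.76 in No-myriocin cells. These groups overlapped as well, with a log2 fold change of -0.03 and an interval of -0.18 to 0.12 (limma adjusted p = 0.700), and the sign turned under quantile normalisation and after control scaling.

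Of the reductase genes, TRR2 passed and TRR1 did not. TRR2, which serves the mitochondrial thioredoxin, had signals of 12.52, 12.14 and 12.43 in myriocin cells, against 10.50, 10.59 and 10.19 in No-myriocin cells. The groups were 1.56 apart at their nearest, and the log2 fold change was 1.94 (SE 0.15, limma adjusted p = 0.000279). TRR1, the reductase of the cytosol, gave 13.71, 13.77 and 13.74 in myriocin cells, against 13.86, 13.87 and 13.77 in No-myriocin cells. All myriocin values were the lower ones, but the nearest, 13.7684 against 13.7688, were separated by only 0.0004. The log2 fold change was -0.09 with an interval of -0.25 to 0.07 (limma adjusted p = 0.273), and it turned to 0.22 after control scaling (limma adjusted p = 0.164, in a range of 0.078 to 0.501 over its alternatives).

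**Figure D2:**
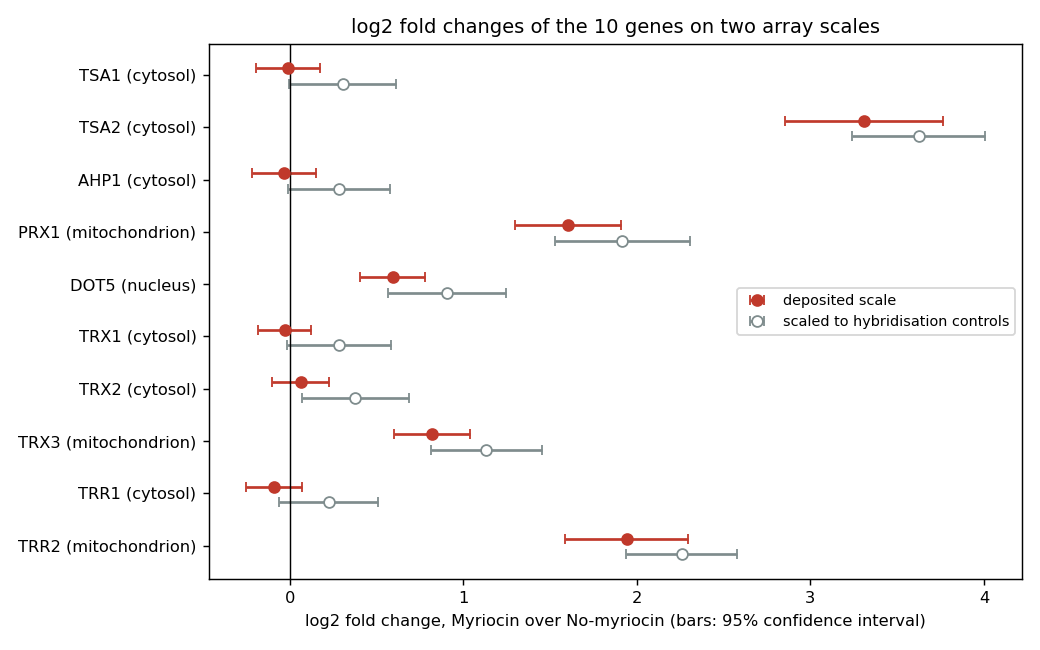
Points give the log2 fold change of Myriocin over No-myriocin cells (horizontal axis) of each gene, with bars for the 95% confidence interval, on the deposited scale (filled) and after control scaling (open). The intervals of TSA2, TRR2, PRX1, TRX3 and DOT5 lie above 0 on both scales, and that of TRX2 does so only on the second.

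By compartment, all 3 mitochondrial genes rose, with log2 fold changes of 0.82 to 1.94. Of the 6 cytosolic genes only TSA2 did, and over all genes 25.5% rose. To ask whether counterparts moved by unequal amounts, the difference between 5 pairs of genes was taken within each array, which cancels the scale of the array. The TRR2 minus TRR1 difference was 2.03 higher in myriocin cells (SE 0.16), that of PRX1 minus TSA1 1.61 higher (SE 0.11), and that of TRX3 minus TRX1 0.85 higher (SE 0.07). Between the cytosolic twins, TSA2 minus TSA1 was 3.32 higher (SE 0.22), whereas TRX2 minus TRX1 was only 0.09 higher (SE 0.03). In every pair the 3 myriocin arrays lay above the 3 No-myriocin arrays, and each had an exact permutation p = 0.1 (two-sided, also 0.1 when adjusted over the 5 pairs), the smallest that 3 against 3 arrays can give. The exact test therefore cannot pass 0.05 for a pair. Whether a probe set also read the other gene of its pair was not tested.

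**Figure D3:**
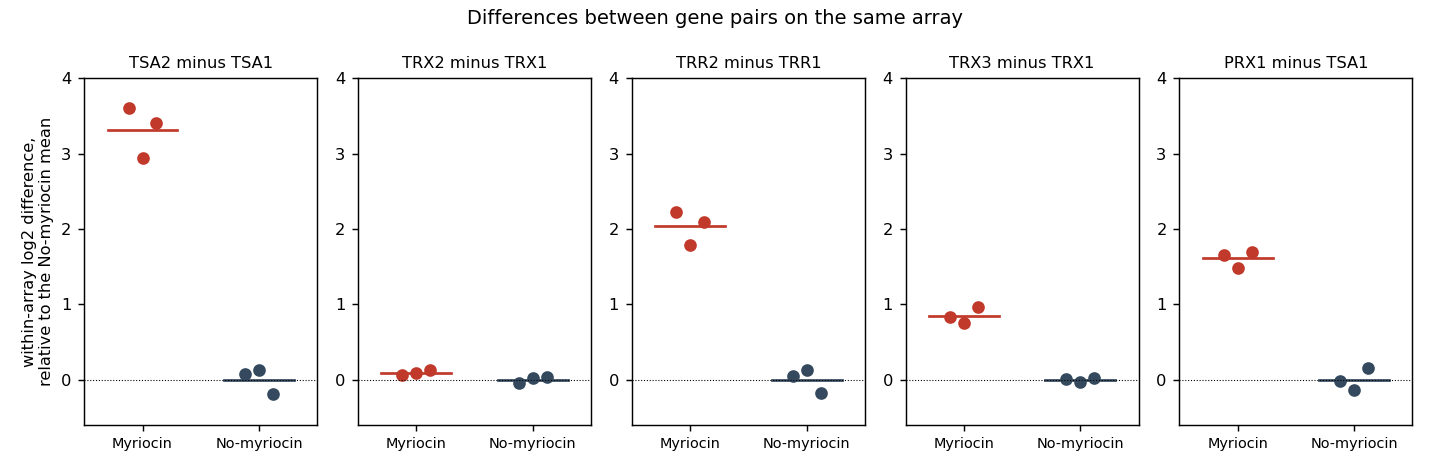
The vertical axis is the log2 difference between the named genes on the same array, less its mean over No-myriocin arrays. Points are single arrays and bars are group means, with Myriocin (red) on the left. The shift is 3.32 for TSA2 minus TSA1, 2.03 for TRR2 minus TRR1 and 0.09 for TRX2 minus TRX1.

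The genes that did not pass were also the bright ones, a split examined after the values were seen. Their No-myriocin means were 13.83 or higher, while those of the 5 that rose were 12.82 or lower, and the highest value of any gene on any array was 15.86. Of the 514 genes with a No-myriocin mean of at least 13.83, 11.3% rose and 32.5% fell, and the highest log2 fold change among them was 1.25. Of the 40 genes at least as bright as AHP1, whose No-myriocin mean was 15.36, limma called 0 higher and 5 lower. Their log2 fold changes ran from -3.62 to 0.20. The No-myriocin mean that picked these bright genes is also subtracted in their log2 fold changes, so the picking itself favours falls. The part of this signal range in the small differences of TSA1, AHP1, TRX1, TRX2 and TRR1 was not tested.

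**Figure D4:**
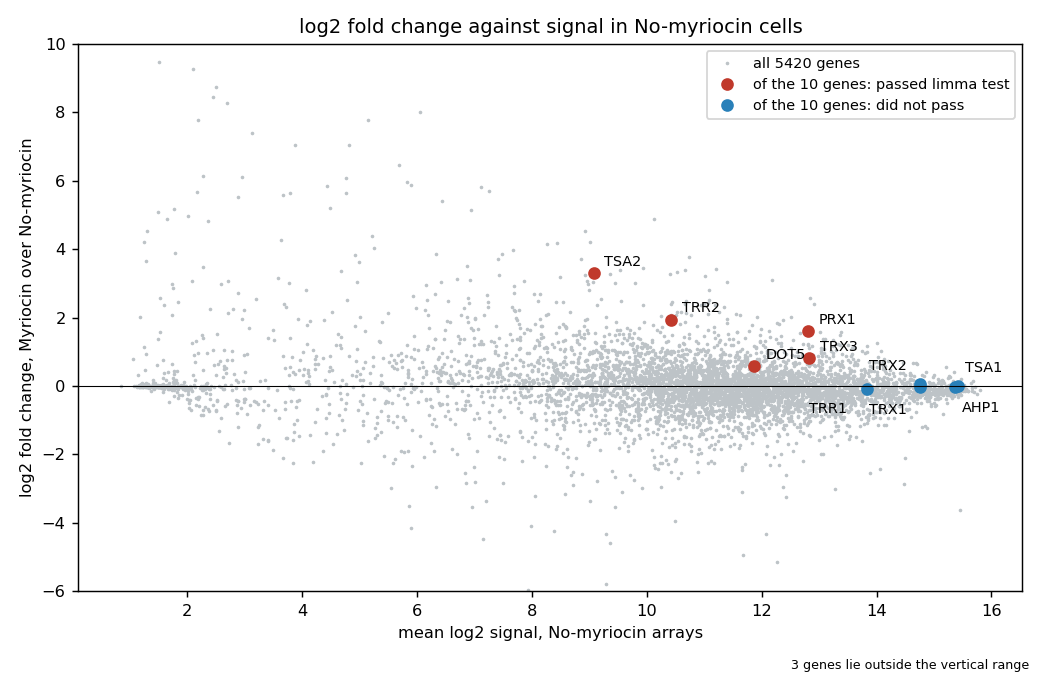
Each grey point is 1 of the 5420 genes, with its mean log2 signal in No-myriocin cells on the horizontal axis and its log2 fold change on the vertical axis. The 5 genes that rose (red) lie at signals of 9.07 to 12.82, and the 5 that did not pass (blue) lie at 13.83 to 15.41.

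Within the myriocin group, replicate 2 had the lowest value for all 5 genes that rose. Among all 1384 genes called higher the same array was lowest for 54.8%. Without myriocin replicate 2 or any other single array, log2 fold changes stayed between 3.20 and 3.51 for TSA2, between 1.82 and 2.05 for TRR2 and between 0.55 and 0.65 for DOT5. Replicate spread over the 10 genes ran from a pooled SD of 0.03 for TRX1 to 0.27 for TSA2, around the median of 0.14 for all genes. The authors' deposited table gives TSA2 a ratio of 9.90 and a p-value of 0.00012, by a test that the labels do not state. Its p-values ran from 0.00012 to 0.000664 for the 5 genes that rose. They ran from 0.063 for TRR1 to 0.837 for TSA1 for the others. That table rests on the same arrays, so it is no separate evidence.

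Genes that feed, use or control the thioredoxin system were taken from 6 lists of 41 genes, all of them measured. Of these, 24 rose and 7 fell, against 25.5% and 28.8% of all genes. The lists were chosen with earlier results of these data known, so these counts describe the lists only. The block took away 5 of these calls and control scaling 4, as given for each below. The regulators showed small changes in both directions. YBP1, which binds Yap1 and is needed for its oxidation, rose by 0.52 (SE 0.09, limma adjusted p = 0.00331). SKN7, a transcription factor that acts with Yap1, fell by 0.52, with signals of 9.03, 9.50 and 9.68 in myriocin cells, against 9.87, 9.995 and 9.90 in No-myriocin cells (SE 0.17, limma adjusted p = 0.0405). That call was lost without 4 of the 6 arrays taken singly, namely myriocin replicate 2 and each No-myriocin replicate (limma adjusted p up to 0.114), and after control scaling (limma adjusted p = 0.337). YAP1 itself had a log2 fold change of -0.23 (SE 0.14, limma adjusted p = 0.189), and HYR1, the peroxide sensor that oxidises Yap1, one of 0.17 (SE 0.09, limma adjusted p = 0.141). Neither passed, and the groups overlapped in both, although HYR1 passed after control scaling (0.49, limma adjusted p = 0.0197, in a range up to 0.324 over its alternatives).

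NADPH, the reductant of thioredoxin reductase, comes from several dehydrogenases, and here 6 of 8 genes rose and none fell, against 25.5% and 28.8% of all genes. GND2, the minor isozyme of 6-phosphogluconate dehydrogenase, gave 13.11, 12.39 and 13.34 in myriocin cells, against 7.58, 6.85 and 7.34 in No-myriocin cells. Its log2 fold change of 5.69 (SE 0.29, limma adjusted p = 0.00011) exceeded that of every one of the 10 genes. Its major counterpart GND1 was estimated at -0.16 (limma adjusted p = 0.0877), and its groups did not overlap. GND1 passed as lower under some alternatives, with adjusted p from 0.0315 to 0.338 over them (limma or the equal-variance test). IDP2, the cytosolic NADP-dependent isocitrate dehydrogenase, rose by 3.85, and its mitochondrial counterpart IDP1 by 0.35. ZWF1, which starts the pentose phosphate pathway, rose by 0.89, and ALD6, a cytosolic aldehyde dehydrogenase, by 0.66. SOL3, a lactonase of the same pathway, rose by 0.22 but missed the threshold with the replicate numbers as a block (limma adjusted p = 0.0544, with 0.00494 to 0.0823 over its alternatives) and without 5 of the 6 arrays taken singly, all but myriocin replicate 3. POS5, the mitochondrial NADH kinase, was estimated at -0.06 (limma adjusted p = 0.529).

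**Figure D5:**
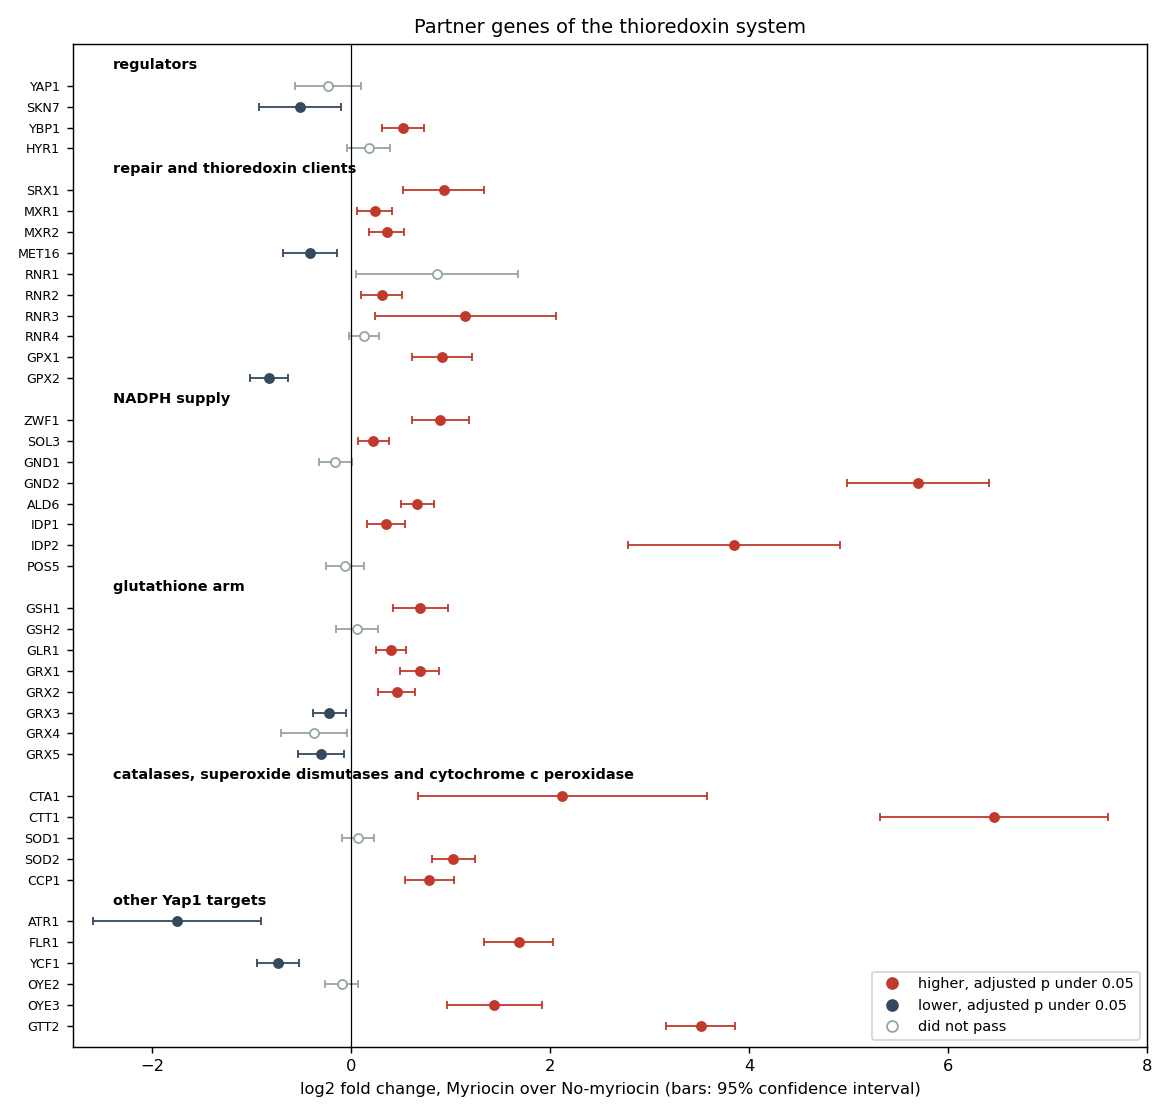
The log2 fold change of Myriocin over No-myriocin cells is plotted for each partner gene, with 95% confidence intervals that are not adjusted for the number of genes, grouped by list. Red marks genes that rose, dark those that fell, and open grey those that did not pass the adjusted test. The highest values are CTT1 at 6.46 and GND2 at 5.69.

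Of 10 genes for repair enzymes and proteins that take electrons from thioredoxin, 6 rose and 2 fell, against 25.5% and 28.8% of all genes. With the replicate block 3 rose and 2 fell, near the 25.4% and 27.1% of all genes. Of the glutathione peroxidase genes, whose products draw on thioredoxin in yeast, GPX1 and GPX2 went opposite ways. GPX1 rose by 0.91 (SE 0.12), with signals of 12.79, 12.40 and 12.68 in myriocin cells, against 11.84, 11.60 and 11.70 in No-myriocin cells. GPX2, a known Yap1 target, fell by 0.82 (SE 0.08), with 10.64, 10.77 and 10.65 in myriocin cells, against 11.41, 11.54 and 11.58 in No-myriocin cells.

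MXR2, the mitochondrial methionine sulfoxide reductase, rose by 0.36 (limma adjusted p = 0.00713). Its cytosolic counterpart MXR1 rose by 0.24, and the ribonucleotide reductase genes RNR2 and RNR3 by 0.30 and 1.14, calls that the block took away (limma adjusted p = 0.0668, 0.058 and 0.0862). Leaving out single arrays also ended them: 5 of 6 for MXR1, all but myriocin replicate 2, and 4 of 6 each for RNR2, where myriocin replicate 2 and No-myriocin replicate 2 were the exceptions, and for RNR3, where myriocin replicates 1 and 2 were. Over their alternatives, adjusted p ran from 0.00318 to 0.112 for these 3 genes. RNR1 and RNR4 had log2 fold changes of 0.86 and 0.13 (limma adjusted p = 0.0709 and 0.119), and both passed after control scaling (limma adjusted p = 0.0107 and 0.0179). MET16, the thioredoxin-dependent reductase of sulfate assimilation, fell by 0.42 (limma adjusted p = 0.0213). Its call was lost without No-myriocin replicate 1 or 3 and after control scaling (limma adjusted p = 0.608). SRX1, the sulfiredoxin that restores overoxidised peroxiredoxin, lay at or under the background ceiling on all No-myriocin arrays and rose above it on 1 of 3 myriocin arrays. Its log2 fold change of 0.93 passed (limma adjusted p = 0.00484) but rests mostly on values under the ceiling, so no fold is given. SRX1 did not pass once values were floored at the ceiling (limma adjusted p = 0.393), an alternative chosen after seeing the data. That was the highest adjusted p of its alternatives, the lowest being 0.00049 in limma.

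In the parallel glutathione arm, 4 of 8 genes rose and 2 fell, against 25.5% and 28.8% of all genes, or 4 and 1 with the block, against 25.4% and 27.1%. GSH1, which catalyses the rate-limiting step of glutathione synthesis, and GRX1, a glutaredoxin gene, rose by 0.69 each, GRX2, another glutaredoxin gene, by 0.46, and the glutathione reductase gene GLR1 by 0.40. GRX3 and GRX5, glutaredoxins with a single active-site cysteine, fell by 0.22 and 0.31 (limma adjusted p = 0.0322 and 0.0344). After control scaling their log2 fold changes were 0.09 and 0.01, and neither passed (limma adjusted p = 0.606 and 0.965, the highest over their alternatives, which began at 0.0119 and 0.0268). GRX3 also failed with the block (limma adjusted p = 0.0663). Each lost its call without 5 of the 6 arrays taken singly, all but myriocin replicate 2 for GRX3 and all but No-myriocin replicate 1 for GRX5. GSH2 and GRX4 had log2 fold changes of 0.06 and -0.38 and did not pass (limma adjusted p = 0.59 and 0.0563), though GRX4 passed as lower without myriocin replicate 1, with equal array medians and with the dimmest 25% of genes left out (limma adjusted p from 0.0285 to 0.772 over its alternatives).

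Of 5 other enzymes against peroxide and superoxide, 4 rose and none fell, against 25.5% and 28.8% of all genes. CTT1, the cytosolic catalase, rose by 6.46 and SOD2, the mitochondrial superoxide dismutase, by 1.03 (SE 0.09), with signals of 14.05, 13.96 and 14.18 in myriocin cells, against 12.98, 12.99 and 13.15 in No-myriocin cells. CCP1, the cytochrome c peroxidase of mitochondria, rose by 0.78 and CTA1, the peroxisomal catalase, by 2.12. One No-myriocin array of CTA1 lay under the background ceiling, at 1.65, so its log2 fold change rests partly on a value below background. Its call was lost without myriocin replicate 1 (limma adjusted p = 0.0586) and in the equal-variance test, which moderates no variance across genes (Benjamini-Hochberg adjusted p = 0.082 over all genes, the highest of its alternatives, which began at 0.00175). SOD1, the mainly cytosolic dismutase, was estimated at 0.07 (limma adjusted p = 0.432) and passed only after control scaling (0.38, limma adjusted p = 0.031). Other Yap1 targets were mixed, 3 of 6 higher and 2 lower, against 25.5% and 28.8% of all genes. GTT2, a glutathione transferase, FLR1, a drug exporter, and OYE3, an NADPH oxidoreductase, rose by 3.51, 1.68 and 1.44. The exporter ATR1 and the vacuolar transporter YCF1 fell by 1.75 and 0.74, and OYE2 was estimated at -0.10 (limma adjusted p = 0.262).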

How the data were processed

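RNA from 6 cultures was hybridised to 6 single-colour arrays. The authors deposited log2 signals per probe set, with Partek the only tool given in the submitters' processing notes. Its version, and how the arrays were normalised, were not given in the sources used here. Per the file headers, the authors' table adds a p-value, a linear ratio and a signed fold score, and differences of group means equalled the log2 of that ratio to within 8.48e-05.

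Of 5900 probe sets, 184 were controls, 79 named several genes and 192 were unnamed here. The other 5445 were named from the platform annotation, with RefSeq symbols (assembly R64), or from the authors' table (24 of them). The brightest per gene was kept. Probe sets can read close paralogs. The test was limma 3.58.1, run in R 4.3.3 over all 5420 genes, two-sided, with Benjamini-Hochberg adjustment, after a test on simulated data. Same-numbered cultures deviated together (correlations across genes of 0.169, 0.233 and 0.175), so the numbers were taken to pair them, and blocked values stand where they alter a call. Other SEs, intervals and adjusted p are from the fit without the block. The members, lists and tests were chosen with earlier results of these data known. Named were all 10 members, the regulators and the partners that passed, and for likeness the 5 nearest genes to the members with the highest and lowest log2 fold change. Partners that did not pass were named after their values were seen. Alternatives were quantile normalisation, equal array medians, control scaling, averaged probe sets, leaving out the dimmest 25% of genes, other variance models, the block, a floor at background, each array left out and a threshold of 0.01. Figures used matplotlib 3.10.9.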

Additional observations from a re-analysis of the deposited data

How the results depend on the processing

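The 5 increases kept their direction and passed under all 16 alternatives, with 0 members called lower in each. Their log2 fold changes could move only under quantile normalisation, equal array medians, control scaling and the leaving out of arrays. The largest shift came from scaling the arrays to the hybridisation controls: 2164 genes were then called higher and 651 lower, the members' median log2 fold change was 0.64, and TSA1, AHP1, TRX1 and TRR1 turned to 0.30, 0.28, 0.28 and 0.22. Regulators then counted 2 higher and 0 lower, thioredoxin clients 1 lower and the glutathione arm 0 lower. Under quantile normalisation TSA1, AHP1 and TRX1 turned to 0.0403, 0.0360 and 0.000517. There 1 NADPH gene, GND1, was called lower, as with the trend and robust variance, with the equal-variance test and with values floored at background. Of all genes, quantile normalisation called 1327 higher and 1645 lower, and the trend and robust variance 1409 and 1653. The equal-variance test left 0 regulators, 1 client and 1 glutathione gene lower, with 1184 of all genes higher and 1354 lower. Flooring, chosen after seeing the data, left 0 regulators lower, with 1378 of all genes higher and 1594 lower. With the replicate block, 3 clients were called higher and 1 glutathione gene lower, and this block changed no other call beyond those given in the report. Pair differences under the block kept their values, with a sign-flip p of 0.25, the smallest 3 pairs can give. With equal array medians, and with the dimmest 25% of genes left out, 3 glutathione genes were called lower. Equal medians called 1386 of all genes higher and 1573 lower, and leaving out the dimmest 25% gave 1077 and 1285. At an adjusted p under 0.01, 966 genes were called higher and 966 lower. On the lists, 3 clients were then higher, and 0 regulators, 1 client and 0 glutathione genes lower. Leaving out the dimmest 25% removed dim genes, which left 0 regulators, 2 catalase and dismutase genes and 0 other Yap1 targets called higher.

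Without single arrays, 1101 to 1274 genes were called higher and 1176 to 1401 lower. Members called higher stayed at 5, their median ranged from 0.30 to 0.36, and TSA1 and AHP1 ranged from -0.0656 to 0.0287 and from -0.0870 to 0.0106. Clients called higher ranged from 3 to 6 and lower from 1 to 2, regulators lower from 0 to 1 and glutathione genes lower from 0 to 1. Depth is not given for arrays. Bright signals and 3 arrays a group limit what small differences can show.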

Other observations

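The genes whose pattern over the 6 arrays was closest to that of TSA2, by Euclidean distance between values centred on each gene's mean, were BDH2 (0.462), PAU2 (0.472), YML131W (0.517), PDR12 (0.528) and ISF1 (0.564). BDH2 is related to the butanediol dehydrogenase gene and PDR12 encodes an exporter of weak acids. Their log2 fold changes lay between 2.996 for PAU2 and 3.43 for BDH2, against 3.31 for TSA2, and PAU2 belongs to a family of near-identical genes, so its value is uncertain. Closest to TRR1, the gene with the lowest log2 fold change of the 10, were HDA2, RPL40A, FRE8, RPL25 and YOP1, at distances of 0.0364 to 0.0633. None of these 5 passed limma (adjusted p from 0.146 to 0.433), and FRE8 lay under the background ceiling on all arrays. The distance takes in the difference between groups as well as the spread within them.

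The genes next to the 10 on their chromosomes, by order in RefSeq assembly R64, gave 19 measured neighbours, of which 2 were called higher and 7 lower, against 25.5% and 28.8% of all genes. Beside the 5 genes that rose, 2 of 10 were higher and 4 were lower. Those higher were SEF1, next to PRX1, by 0.89, and AHC2, next to TRX3, by 0.23. TIR3, a wall mannoprotein gene next to DOT5, fell by 5.15, and KIP1, a kinesin gene next to PRX1, fell by 1.48. The neighbours of TSA2, PPN1 and GUK1, had log2 fold changes of -0.10 and 0.06 and did not pass (limma adjusted p = 0.390 and 0.474).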
